A study of Mus musculus with 4 samples.

Results

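The genes described here are a listed set of 50 genes for non-collagen proteins of the extracellular matrix, out of the 54842 genes in the count table. The members are named one by one in the list, which holds 15 adhesive and matricellular glycoproteins, 12 elastic fibre components, 3 lysyl oxidases, 11 basement membrane components, 7 small leucine-rich proteoglycans and 2 hyaluronan-binding proteoglycans. All 50 genes were in the table, and 47 of them passed the filter for testing (at least 10 counts in at least 2 libraries). Of these 47, Efemp1, Lama1 and Acan reached 10 counts in the libraries of only 1 genotype.

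RNA libraries depleted of ribosomal RNA were made from untreated mouse embryonic fibroblasts (MEF cells), with 2 libraries of the genotype labelled wild-type (wt) and 2 of the genotype labelled top2beta null (Top2β-null). Top2β is a DNA topoisomerase, an enzyme that passes 1 DNA double strand through another and so releases entangled DNA, and it is expressed in dividing and non-dividing cells. The Top2β-null MEF cells were derived from Top2β-null mice and came to the study from other laboratories, so the genotype and the origin of the cells cannot be told apart. The labels do not say whether the 2 libraries of a genotype come from separate cultures, and the p-values below measure only the spread between these libraries. The summed counts per library ran from 133116830 to 149647278, and Top2b itself was read at 18259 and 18465 normalized counts in wt and 3879 and 3789 in Top2β-null cells. A normalized count here is a count scaled to a common library size. Because the RNA is from whole cultures, fewer cells of a type and less RNA per cell cannot be told apart.

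The extracellular matrix is the protein and sugar network that cells secrete around themselves. Glycoproteins such as fibronectin and the laminins link cells to this network through integrins, fibrillins and fibulins build elastic fibres that lysyl oxidases crosslink, and proteoglycans carry long glycosaminoglycan chains that hold water and bind growth factors. Fibroblasts are the main source of these proteins in connective tissue. Matricellular proteins, among them thrombospondins, tenascins, osteopontin and the CCN proteins, are secreted into the matrix but mainly modulate how cells attach and signal.

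The matrix genes differed between wt and Top2β-null MEF cells in both directions. 14 members were called higher in Top2β-null MEF cells: Tgfbi, Fbn2, Spp1, Lama2, Dcn, Lama4, Vcan, Agrn, Thbs2, Thbs1, Tnc, Loxl2, Bgn and Fbln5. 7 members were called lower: Postn, Nid2, Tnxb, Lama5, Ctgf, Lox and Matn2. A gene was called where its adjusted p was below 0.05, its absolute log2 fold change (Top2β-null over wt) was above 1 and its mean normalized count was above 100, which are the cut-offs of the study's methods. The 21 called members are 44.7% of the 47 tested, and 10.8% of all 25085 genes tested were called. By direction, 5.52% of all genes tested were called higher and 5.25% lower. The adjusted p of the 21 called members ran from 1.0e-21 for Spp1 to 6.5e-09 for Loxl2 (edgeR's quasi-likelihood test, Benjamini-Hochberg adjustment over all genes and repeat families).

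Many of these genes are abundant in fibroblasts, so the same counts were also read among genes of higher level. 39 members had a mean normalized count above 100, and 53.8% of them were called, against 16.2% of all genes over that level. 33 members had at least 100 counts in every library, of which 10 were called higher and 5 lower (45.5%), against 11.5% of genes under the same filter. The 6 called members that this filter removed are Tgfbi, Fbn2, Lama2, Lama4, Postn and Tnxb, each of which had a group mean under 100 normalized counts. An adjusted p below 0.05 alone was reached by 26 members with the higher level in Top2β-null MEF cells and by 17 with the lower level, and 66.4% of all genes tested passed that single cut-off. Efemp1 and Lama1 (higher) and Acan (lower) are among these and passed the filter through 1 genotype only. The 4 members that missed it are Fbln2, Mfap4, Mfap5 and Prelp. Both Top2β-null libraries lay above both wt libraries for 26 members and below them for 17, and 81.9% of all genes tested had libraries of the 2 genotypes that did not overlap. The median log2 fold change was 0.32 over the 47 members and -0.0058 over all genes tested, and the median of the absolute values was 1.11 and 0.42, respectively.

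**Figure D1:**
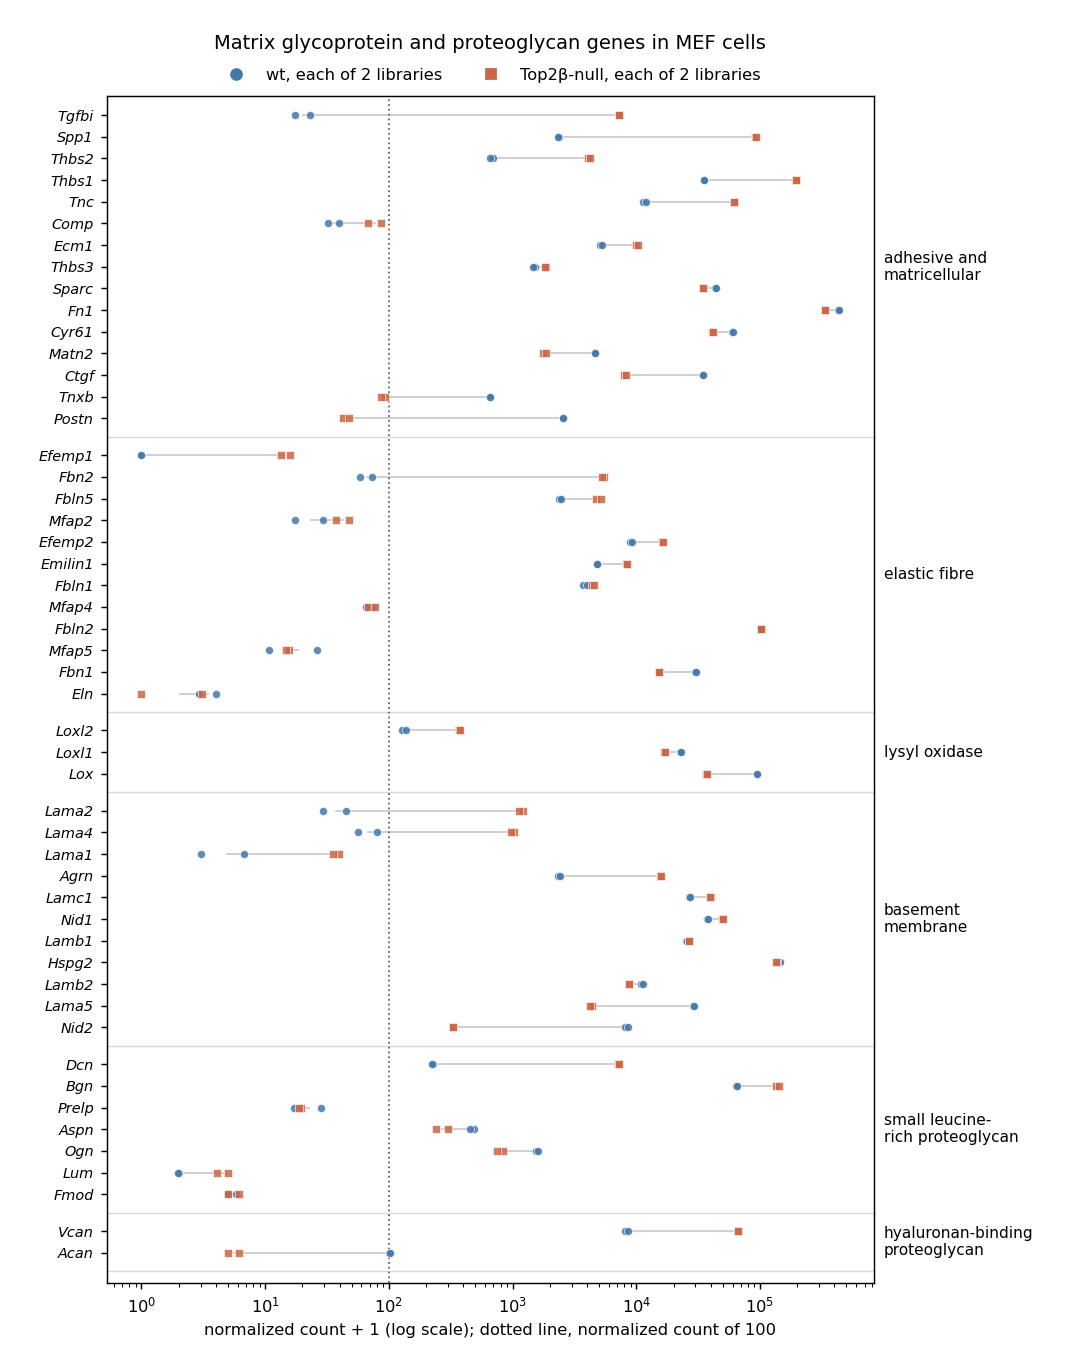
Normalized count plus 1 (log axis) of each of the 50 genes in every library, grouped by role and ordered within a role by log2 fold change; blue circles are the 2 wt libraries, orange squares the 2 Top2β-null libraries, and the grey line joins the group means. Replicates lie close together compared with the distance between genotypes for the called genes, and Eln, Lum, Fmod and Efemp1 lie at the low end in all 4 libraries.

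The 50 genes together held 1.08% and 1.10% of all counts assigned to genes in the wt libraries and 1.38% of them in each Top2β-null library. The order of the members by level also differed between the genotypes. On the scale of normalized counts per kilobase of exon, the highest member in wt MEF cells was Fn1 at 37045, followed by Cyr61 at 29672 and Lox at 19858. This scale allows levels to be compared between genes only roughly. It divides by all annotated exons of a gene joined together, not by the length of the transcripts made. In Top2β-null MEF cells the highest member was Spp1 at 55998, followed by Thbs1 at 32039 and Fn1 at 28924. Spp1 had been 21st of the 50 in wt MEF cells and Thbs1 10th, whereas Lox went from rank 3 to rank 10.

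The identity of the cultures was read from marker genes. All 9 fibroblast markers were read in all 4 libraries, the lowest of them being Pdgfra (442 and 481 normalized counts in wt, 1016 and 1048 in Top2β-null). Their summed level, mostly from Vim, Col1a1 and Col1a2, was 913867 and 929096 in wt and 595668 and 602578 in Top2β-null cells. Among them Thy1, Pdgfrb and Pdgfra were called higher, and the collagen genes Col1a1 and Col3a1 lower. These are 55.6% of the list, against 10.8% of all genes tested and 16.2% of those over the mean cut-off. Of 4 smooth muscle markers, 3 were called lower (75%, against 10.8% of all genes tested called and 5.25% called lower). The actin gene Acta2 was read at 104063 and 106902 normalized counts in wt and 5256 and 5431 in Top2β-null cells. Tagln and Cnn1 were called lower as well, whereas Myh11, the smooth muscle myosin heavy chain, was low in all 4 libraries (60.6 and 37.7 in wt, 40.4 and 41.6 in Top2β-null). Their summed level was 112958 and 115609 in wt and 6087 and 6316 in Top2β-null cells. Of 4 adipocyte markers, Fabp4 was called higher (8.07 and 1.93 in wt, 572 and 534 in Top2β-null, with 10 counts reached only in Top2β-null), Lep was at 0 in all libraries, and Adipoq and Plin1 were at or below 7.25 normalized counts. The summed level of this list was 11.1 and 2.90 in wt and 581 and 537 in Top2β-null cells.

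Of 6 leukocyte markers, Tyrobp was at 0 in every library and Ptprc at or below 6.76 normalized counts, whereas Cd68 was called lower (1641 and 1688 in wt, 302 and 289 in Top2β-null). The macrophage receptor gene Csf1r was read at 739.8 and 767 in wt and 962 and 978 in Top2β-null cells and was not called, and Itgam had 1 count in each wt library and 27 and 29 counts in the Top2β-null libraries, under the mean cut-off. The summed leukocyte level was 2389 and 2464 in wt and 1297 and 1302 in Top2β-null cells. None of 6 epithelial markers was called, with a sum of 73.7 and 72.4 normalized counts in wt and 22.8 and 25.8 in Top2β-null cells, and Krt8 (45.4 and 45.4 in wt, 6.21 and 3.96 in Top2β-null) and Cdh1 (19.2 and 23.2 in wt, 7.25 and 8.91 in Top2β-null) had their higher values in wt. Of 6 endothelial markers only Kdr was called, as higher, and their sum ran from 164 to 259. Tek, another of them, was read at 43.4 and 34.8 in wt and 9.32 and 3.96 in Top2β-null cells. Among 5 chondrocyte markers none was called (summed level 4730 and 4729 in wt, 5382 and 5498 in Top2β-null, most of it Sox9), although Col2a1 was read at 8.07 and 9.66 in wt and 166 and 166 in Top2β-null cells. Of 4 skeletal muscle markers, Myog and Myf5 were at 0 in every library and Des went from 88.8 and 139 in wt to 2.07 and 0.99 in Top2β-null MEF cells, with a sum of the list of 88.8 and 139 in wt and 3.11 and 0.99 in Top2β-null cells. Krt8, Cdh1, Tek and Des reached 10 counts only in wt, and Itgam only in Top2β-null MEF cells. The share called was 33.3% of 3 leukocyte, 25% of 4 endothelial, 0% of 2 epithelial and 0% of 4 chondrocyte markers tested, against 10.8% of all genes tested. Whether these marker differences have a part in the matrix gene differences below was not tested.

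Among the 15 adhesive and matricellular glycoproteins, 5 were called higher and 4 lower in Top2β-null MEF cells, which is 60% of the group against 10.8% of all genes tested (64.3% against 16.2% over the mean cut-off). All 15 had an adjusted p below 0.05, which 66.4% of all genes reached. Spp1 (ENSMUSG00000029304.14, chr5:104435118-104441050, + strand) encodes osteopontin, a secreted phosphoprotein that binds integrins and CD44. It was read at 2355 and 2330 normalized counts in wt and 91871 and 92697 in Top2β-null cells. Both Top2β-null libraries lay far above both wt libraries, and the means of 2342 ± 17.7 and 92284 ± 584 (SD, n = 2) lay 39.4-fold apart (log2 fold change 5.30 ± 0.032, SE). The gene Gm42793, which overlaps Spp1 on the same strand, held counts equal to 0.074 of those of Spp1 in wt and 0.078 in Top2β-null cells.

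Tgfbi (ENSMUSG00000035493.10, chr13:56609523-56639562, + strand), which encodes a fasciclin-domain protein induced by TGF-β, had the largest difference of all members. It was close to the low end in wt MEF cells, with 22.2 and 16.4 normalized counts, and reached 7307 and 7251 in Top2β-null MEF cells. The genotypes were 377-fold apart (log2 fold change 8.55 ± 0.076). Its difference was above that of 99.4% of all genes tested.

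Postn (ENSMUSG00000027750.16, chr3:54361109-54391037, + strand) encodes periostin, the other fasciclin-domain protein of the list, and it differed in the opposite direction. The wt libraries held 2573 and 2563 normalized counts and the Top2β-null libraries 41.4 and 46.5. Both Top2β-null libraries lay below 100, and the level was 58.4-fold lower than in wt (log2 fold change -5.86 ± 0.084). Tgfbi and Postn are relatives in sequence and domain structure, and were the members with the largest called differences upward and downward.

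The 3 thrombospondins and COMP are secreted multimeric glycoproteins, of which thrombospondin-1 is known as an inhibitor of angiogenesis and an activator of latent TGF-β. Thbs1 (ENSMUSG00000040152.8, chr2:118111876-118127133, + strand) was one of the most abundant members, with 35135 and 35490 normalized counts in wt and 194602 and 194540 in Top2β-null cells. Thbs2 (ENSMUSG00000023885.9, chr17:14665500-14694235, - strand) was read at 698 and 659.7 in wt and 4095 and 4241 in Top2β-null cells. The Top2β-null libraries were the higher ones for both, by 5.51-fold (log2 fold change 2.46 ± 0.029) and 6.14-fold (log2 fold change 2.62 ± 0.049). The 2 other relatives were not called: Thbs3 had a log2 fold change of 0.32 ± 0.049 (adjusted p = 2.9e-05), and Comp, with a mean below the cut-off, one of 1.12 ± 0.25 (adjusted p = 9.5e-04). Thbs3 overlaps Mtx1, which held 1.81 times its counts in wt and 1.6 times in Top2β-null MEF cells. Summed per kilobase of exon, the level of the family was 6230 in wt and 33041 in Top2β-null cells, and Thbs1 held 93.3% ± 0.20 of the sum in wt and 97.0% ± 0.0072 in Top2β-null cells (SD, n = 2).

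The 2 tenascins went opposite ways. Tnc (ENSMUSG00000028364.15, chr4:63959785-64047015, - strand), a hexameric glycoprotein of embryonic and healing tissue, was read at 11361 and 12049 normalized counts in wt and 61634 and 61689 in Top2β-null cells, with no overlap between the genotypes (5.27-fold higher, log2 fold change 2.40 ± 0.031). Tnxb (ENSMUSG00000033327.16, chr17:34670535-34719815, + strand), the tenascin of loose connective tissue, was read at 653 and 661 in wt and 92.2 and 85.2 in Top2β-null cells. Here the wt libraries were the higher ones, by 7.41-fold (log2 fold change -2.89 ± 0.10). On the per-kilobase scale Tnc held 96.5% ± 0.11 of the tenascin sum in wt and 99.9% ± 0.0052 in Top2β-null cells (SD, n = 2), so that the sum followed Tnc and was 5.09-fold higher.

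Cyr61 and Ctgf encode the matricellular CCN proteins 1 and 2, both known as targets of the YAP and TAZ coactivators. Ctgf (ENSMUSG00000019997.11, chr10:24595442-24598683, + strand) was called lower, with 34864 and 34692 normalized counts in wt and 7926 and 8216 in Top2β-null cells (4.31-fold lower, log2 fold change -2.11 ± 0.027). Cyr61, with 59549 and 60268 in wt and 40785 and 41847 in Top2β-null cells, also had its lower values in the Top2β-null libraries, but with a log2 fold change of -0.54 ± 0.026 it was not called (adjusted p = 2.8e-11). The share of Cyr61 in the per-kilobase sum of the pair was 70.9% ± 0.25 in wt and 87.9% ± 0.076 in Top2β-null cells (SD, n = 2). Ctgf overlaps the gene Gm15270, whose counts equalled 0.219 of those of Ctgf in both genotypes.

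Matn2 (ENSMUSG00000022324.15, chr15:34306677-34436273, + strand), which encodes the adaptor protein matrilin-2, was the fourth of the called lower genes of this group. It was read at 4628 and 4631 normalized counts in wt and 1748 and 1855 in Top2β-null cells, 2.57-fold lower (log2 fold change -1.36 ± 0.041). The most abundant member of all by count, Fn1, encodes fibronectin, on which other matrix proteins assemble. Fn1 was read at 428501 and 437231 in wt and 338101 and 337858 in Top2β-null cells and was not called, although the Top2β-null values were the lower ones (log2 fold change -0.36 ± 0.031, adjusted p = 4.6e-08). Of the remaining pair, Sparc, a collagen-binding protein, had a log2 fold change of -0.34 ± 0.026 and Ecm1 one of 0.97 ± 0.03. Ecm1 lay just under the cut-off and would be called when scaled to the total count (1.03) or without Top2β-null replicate 1 (1.04).

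**Figure D2:**
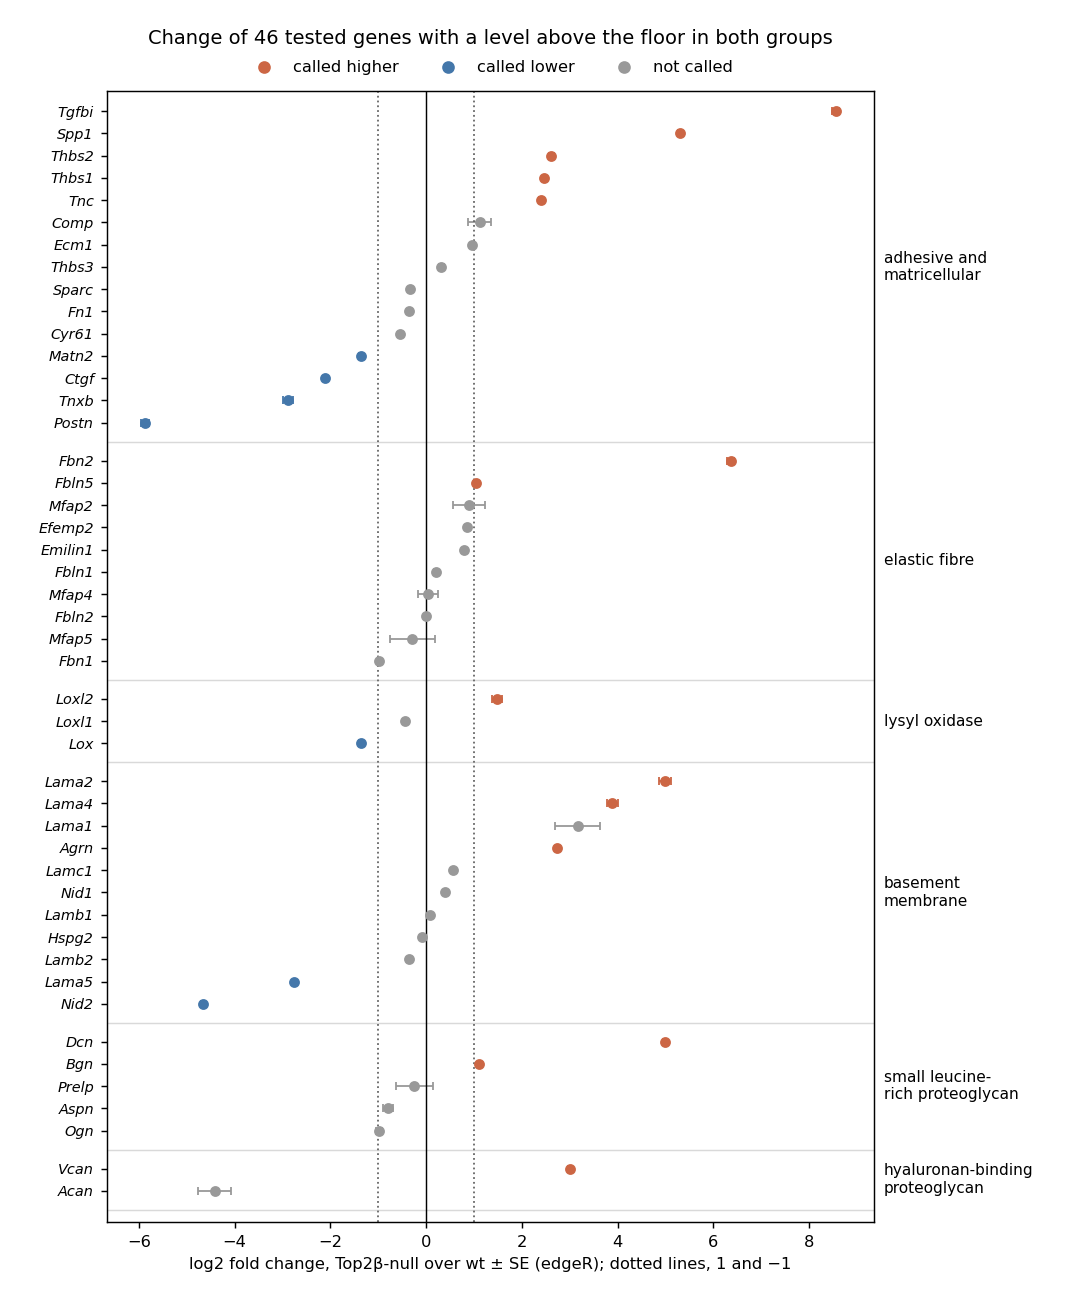
Log2 fold change (Top2β-null over wt) with its standard error from edgeR's fit for the 46 tested genes whose level was above 3 counts in some library of each genotype, grouped by role; orange points were called higher, blue points lower, and grey points were not called, and dotted lines mark 1 and -1. Called genes of both directions are found among the adhesive glycoproteins, the lysyl oxidases and the basement membrane genes, and the error bars are wide only for genes of low count such as Lama1, Comp and Acan, of which Lama1 and Acan reached 10 counts in 1 genotype only.

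Of the elastic fibre genes, 2 of 11 tested members were called, both higher (18.2%, against 10.8% of all genes tested, and 28.6% against 16.2% over the mean cut-off). At an adjusted p below 0.05, which 66.4% of all genes reached, 7 of the 11 had higher and 1 had lower values in Top2β-null MEF cells. Fbn2 (ENSMUSG00000024598.8), on chromosome 18, encodes fibrillin-2, the fibrillin of developing tissue. It was read at 72.7 and 58.0 normalized counts in wt and 5435 and 5326 in Top2β-null cells, 82.4-fold higher (log2 fold change 6.36 ± 0.071). Fbn1, the fibrillin that predominates after birth, was read at 29885 and 30369 in wt and 15372 and 15154 in Top2β-null cells. Its log2 fold change of -0.98 ± 0.025 was that of the 1 lower gene (adjusted p = 6.0e-15) and fell just short of a call, which it passed without wt replicate 1 (-1.01). In the per-kilobase sum of both fibrillins, Fbn2 held 0.20% ± 0.034 in wt and 24.4% ± 0.081 in Top2β-null cells (SD, n = 2), while the sum itself was 0.669 of the wt level.

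Fibulins connect elastin to microfibrils and to cells. Fbln2 was the most abundant elastic fibre gene, with 101418 and 103440 normalized counts in wt and 101940 and 102335 in Top2β-null cells. The Top2β-null values lay between those of wt, and the fit gave a log2 fold change of -0.0041 ± 0.027 (adjusted p = 0.91), the smallest difference among the 47 tested members. Fbln5 (ENSMUSG00000021186.9, chr12:101746565-101819055, - strand), a fibulin needed for elastic fibre assembly, was called higher (2361 and 2456 in wt, 4707 and 5209 in Top2β-null), but its log2 fold change of 1.04 ± 0.046 lay just above the cut-off and fell below it without wt replicate 1 (0.9989) and without Top2β-null replicate 2 (0.99). Efemp2, Emilin1 and Fbln1 had log2 fold changes of 0.85 ± 0.026, 0.79 ± 0.028 and 0.21 ± 0.037 and were not called. Efemp2 overlaps Mus81, whose counts equalled 0.348 of those of Efemp2 in wt and 0.14 in Top2β-null cells.

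The low elastic fibre genes need their counts beside them. Efemp1, which encodes fibulin-3, had no count in either wt library and 12.4 and 14.9 normalized counts in the Top2β-null libraries. Set against a floor of 3 counts in each wt library, it was at least 4.10-fold higher, a bound for counting error only. Eln, the gene of elastin itself, was at 3.03 and 1.93 in wt and 2.07 and 0 in Top2β-null cells, which is at the floor in both genotypes, and it was not tested. The microfibril-associated genes Mfap2, Mfap4 and Mfap5 had between 9.66 and 76.3 normalized counts and were under the mean cut-off. Mfap4 overlaps Mapk7, which held 40.2 times its counts in wt and 41.9 times in Top2β-null MEF cells.

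Lysyl oxidases crosslink collagen and elastin, and 1 of the 3 members was called lower, 1 higher and 1 not (66.7% called, against 10.8% of all genes tested and 16.2% of those over the mean cut-off). Lox (ENSMUSG00000024529.13), on chromosome 18, was called lower, with 94579 and 95186 normalized counts in wt and 36422 and 37266 in Top2β-null cells (2.58-fold lower, log2 fold change -1.36 ± 0.027). Loxl1, with 22524 and 23019 in wt and 16718 and 17040 in Top2β-null cells, was not called at a log2 fold change of -0.43 ± 0.025 (adjusted p = 2.4e-10). Loxl2 (ENSMUSG00000034205.16, chr14:69609068-69695834, + strand) was called higher, with 127 and 137 in wt and 365 and 373 in Top2β-null cells (2.79-fold, log2 fold change 1.48 ± 0.11). Loxl2 is overlapped by Gm27177, which had 123 and 139 counts in wt, nearly as many as Loxl2, and 47 and 37 in Top2β-null MEF cells. Per kilobase of exon, the summed level of these 3 enzymes was 26789 in wt and 12899 in Top2β-null cells, in which the share of Lox went from 74.1% ± 0.21 to 59.8% ± 0.063 and that of Loxl1 from 25.8% ± 0.21 to 39.7% ± 0.064 (SD, n = 2). Outside the members and this sum, Loxl3 was read at 461 per kilobase in wt and 943 in Top2β-null cells (called higher) and Loxl4 at 4242 and 2454, respectively (not called), both named after their values were seen.

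Basement membranes are thin sheets built from laminin trimers of 1 α, 1 β and 1 γ chain, a collagen network, nidogens that join them, and the heparan sulfate proteoglycans perlecan and agrin. Of 11 basement membrane genes, 3 were called higher and 2 lower (45.5%, against 10.8% of all genes tested, and 50% against 16.2% over the mean cut-off). The laminin α chains were called in both directions. Lama5 (ENSMUSG00000015647.9, chr2:180176373-180225859, - strand), the α chain of laminins in many adult basement membranes, was read at 28600 and 29282 normalized counts in wt and 4356 and 4212 in Top2β-null cells, 6.76-fold lower (log2 fold change -2.76 ± 0.028). Lama2 (ENSMUSG00000019899.16, chr10:26980036-27619758, - strand), the chain known from muscle and nerve, was read at 28.3 and 44.4 in wt and 1212 and 1121 in Top2β-null cells, 32.1-fold higher (log2 fold change 4.99 ± 0.12). Lama4 (ENSMUSG00000019846.11, chr10:38965515-39110188, + strand), a chain of vessels and mesenchyme, was read at 79.7 and 55.1 in wt and 1022 and 971 in Top2β-null cells, 14.8-fold higher (log2 fold change 3.89 ± 0.11). For each of the 3 chains the libraries of the genotypes were widely apart, and in Lama2 and Lama4 both wt libraries were below 100.

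Lama1 stayed under the mean cut-off (2.02 and 5.80 in wt, 38.3 and 34.7 in Top2β-null) and reached 10 counts only in Top2β-null MEF cells. Together the α chains summed to 2550 normalized counts per kilobase of exon in wt and to 534 in Top2β-null cells. Lama5 held 99.7% ± 0.024 of this sum in wt and 70.5% ± 0.46 in Top2β-null cells, in which Lama4 held 15.5% ± 0.099 and Lama2 13.4% ± 0.33 (SD, n = 2). The partner chains among the members were not called. Lamb1 had a log2 fold change of 0.08 ± 0.025 and Lamc1 one of 0.56 ± 0.026. Lamb2, with 10991 and 11247 normalized counts in wt and 8802 and 8668 in Top2β-null cells, had its lower values in Top2β-null MEF cells (log2 fold change -0.35 ± 0.026). Lamb1 and Lamb2 together summed to 4385 per kilobase in wt and 4140 in Top2β-null cells, so that the ratio of the summed α chains to these 2 β chains was lower in Top2β-null MEF cells.

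The nidogens also differed in their make-up. Nid2 (ENSMUSG00000021806.4, chr14:19751265-19811787, + strand) was called lower, with 8063 and 8509 normalized counts in wt and 326 and 328 in Top2β-null cells (25.3-fold lower, log2 fold change -4.66 ± 0.048). Nid1 was read at 37421 and 38332 in wt and 49299 and 50160 in Top2β-null cells and was not called (log2 fold change 0.39 ± 0.026, adjusted p = 1.4e-09). Nid2 held 22.7% ± 0.37 of the per-kilobase sum in wt and 0.87% ± 0.0076 in Top2β-null cells (SD, n = 2), and the sums were 1.02-fold apart. Nid2 overlaps Rtraf, which held 1.24 times the counts of Nid2 in wt and 20.8 times in Top2β-null MEF cells. It also lies on the chromosome of Top2b, 3.316 Mb away (Top2b is at chr14:16365179-16435462). Of 81 genes tested within 5 Mb of Top2b, 5 were called higher and 4 lower (11.1%, and 10.8% of all genes tested). These counts include Top2b and Nid2 themselves, both among the 4 called lower. Whether the distance to Top2b has a part in the Nid2 difference was not tested.

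Perlecan and agrin are the proteoglycans of the group. Hspg2, the gene of perlecan, was the most abundant basement membrane gene, with 142925 and 145548 normalized counts in wt and 137743 and 135078 in Top2β-null cells (log2 fold change -0.08 ± 0.029, adjusted p = 0.022, not called). Agrn (ENSMUSG00000041936.18, chr4:156165290-156197488, - strand), which encodes agrin, the organizer of the neuromuscular synapse, was read at 2338 and 2405 in wt and 15668 and 15958 in Top2β-null cells. It was called 6.67-fold higher (log2 fold change 2.74 ± 0.029), and the libraries of the genotypes did not overlap.

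**Figure D3:**
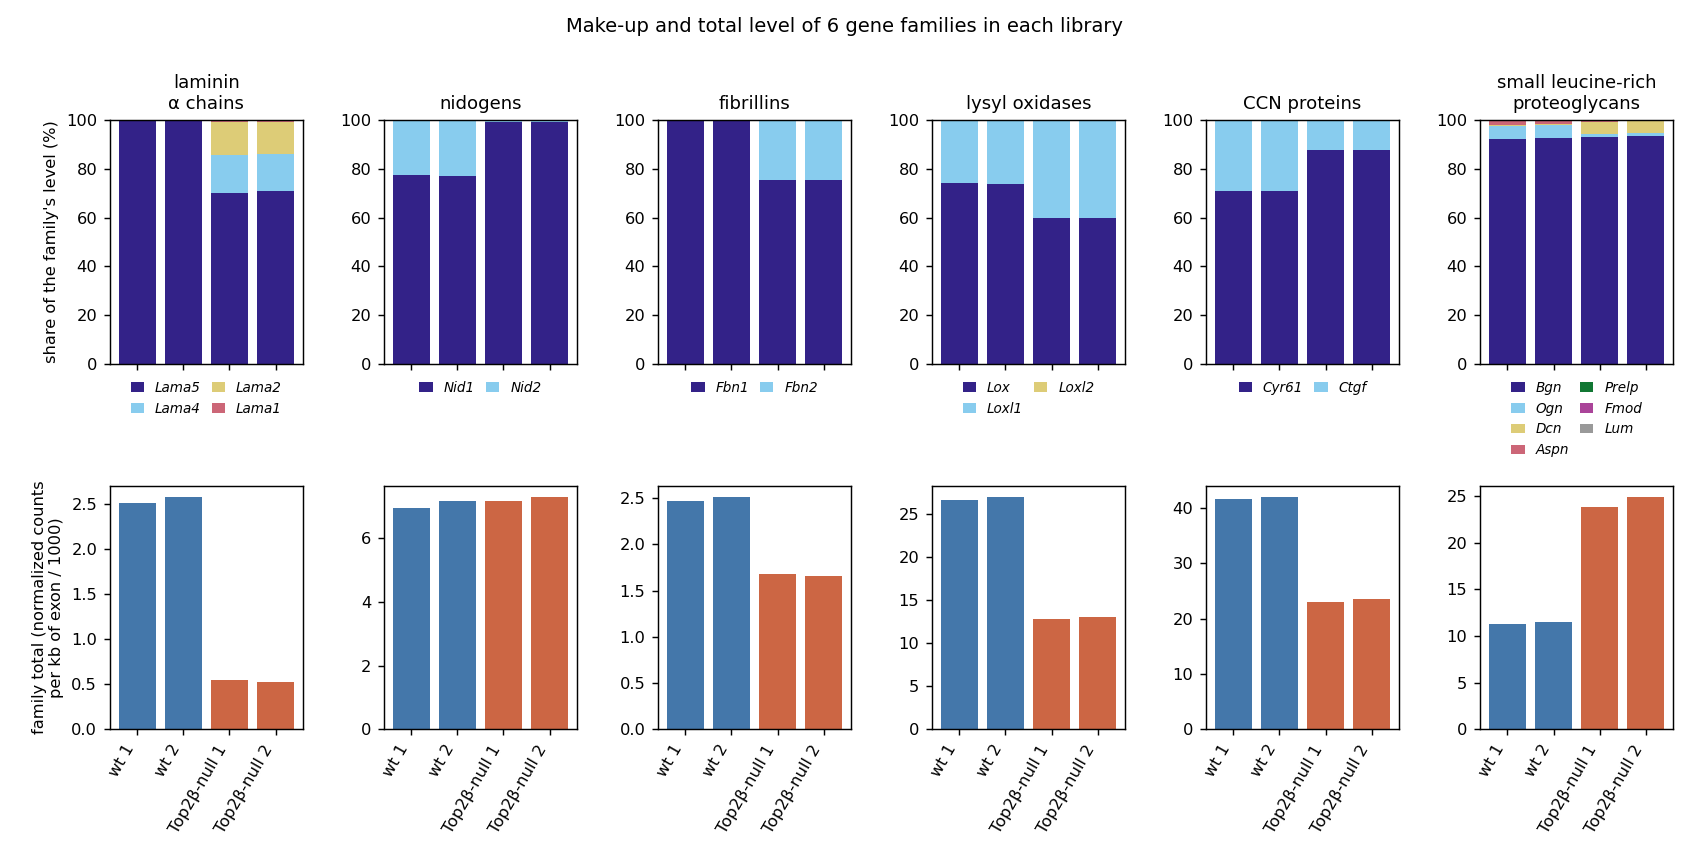
Top row, share (%) of each gene in the summed level of its family per library; bottom row, that sum in normalized counts per kilobase of exon divided by 1000, for the 2 wt (blue) and 2 Top2β-null (orange) libraries. Laminin α chains and fibrillins gain a visible share of Lama2, Lama4 and Fbn2 in Top2β-null MEF cells and have lower sums there, and the nidogen sums are 1.02-fold apart while Nid2 holds 0.87% of them in Top2β-null MEF cells.

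The small leucine-rich proteoglycans bind collagen fibrils and growth factors such as TGF-β. Bgn (ENSMUSG00000031375.17, chrX:73483602-73495933, + strand), the gene of biglycan, was by far the most abundant, with 63838 and 64742 normalized counts in wt and 135434 and 141695 in Top2β-null cells (2.16-fold higher, log2 fold change 1.11 ± 0.03). Dcn (ENSMUSG00000019929.16, chr10:97479609-97518143, + strand), the gene of decorin, a close relative in structure, was read at 226 and 223 in wt and 7053 and 7239 in Top2β-null cells (31.8-fold higher, log2 fold change 4.99 ± 0.05). Both were called, and the Top2β-null libraries were the higher ones in both. They are 2 of 5 tested members of this role (40%, against 10.8% of all genes tested, and 50% against 16.2% over the mean cut-off). The median log2 fold change of the 5 was -0.25. In the per-kilobase sum of the family, the share of Bgn was 92.5% ± 0.052 in wt and 93.2% ± 0.28 in Top2β-null cells, whereas the share of Dcn was 0.34% ± 0.0063 in wt and 5.02% ± 0.053 in Top2β-null cells (SD, n = 2).

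Many genes of this family lie in clusters, which allowed neighbours to be compared. On chromosome 13, Ecm2, Aspn, Omd and Ogn follow each other from position 49504810 to 49624501, and all 4 had lower values in Top2β-null MEF cells without overlap of the genotypes, as 81.9% of all genes tested were without overlap in one direction or the other. Ogn was read at 1558 and 1597 normalized counts in wt and 838 and 754 in Top2β-null cells, and Aspn at 484 and 450.1 in wt and 300.3 and 239 in Top2β-null cells. Ecm2 was read at 738 and 745 in wt and 476 and 443 in Top2β-null cells, and Omd at 388 and 393 in wt and 291 and 264 in Top2β-null cells. The log2 fold changes were -0.69 ± 0.07, -0.80 ± 0.10, -0.49 ± 0.092 and -0.99 ± 0.059 along the chromosome, with adjusted p-values from 3.6e-10 to 2.0e-04, and none of the 4 was called. Ogn would be called without wt replicate 1 (-1.02) or without Top2β-null replicate 1 (-1.03). Aspn overlaps Cenpp, which had 1222 and 1230 counts in wt and 700 and 734 in Top2β-null cells.

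On chromosome 10, Dcn was the only gene of its cluster with enough counts for the test. Lum, Kera and Epyc, which follow Dcn within chr10:97479609-97682454, had at most 3.96 normalized counts in any library and were not tested. Lum, the gene of lumican, was read at 1.01 and 0.966 in wt and 3.11 and 3.96 in Top2β-null cells. On chromosome 1, Optc was read at 49.5 and 63.7 in wt and 2.07 and 3.96 in Top2β-null cells, with its mean under the cut-off and 10 counts reached only in wt. Its neighbours Prelp (log2 fold change -0.25 ± 0.38, adjusted p = 0.59) and Fmod (4.04 and 4.83 in wt, 5.18 and 3.96 in Top2β-null, not tested) were low in all libraries.

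**Figure D4:**
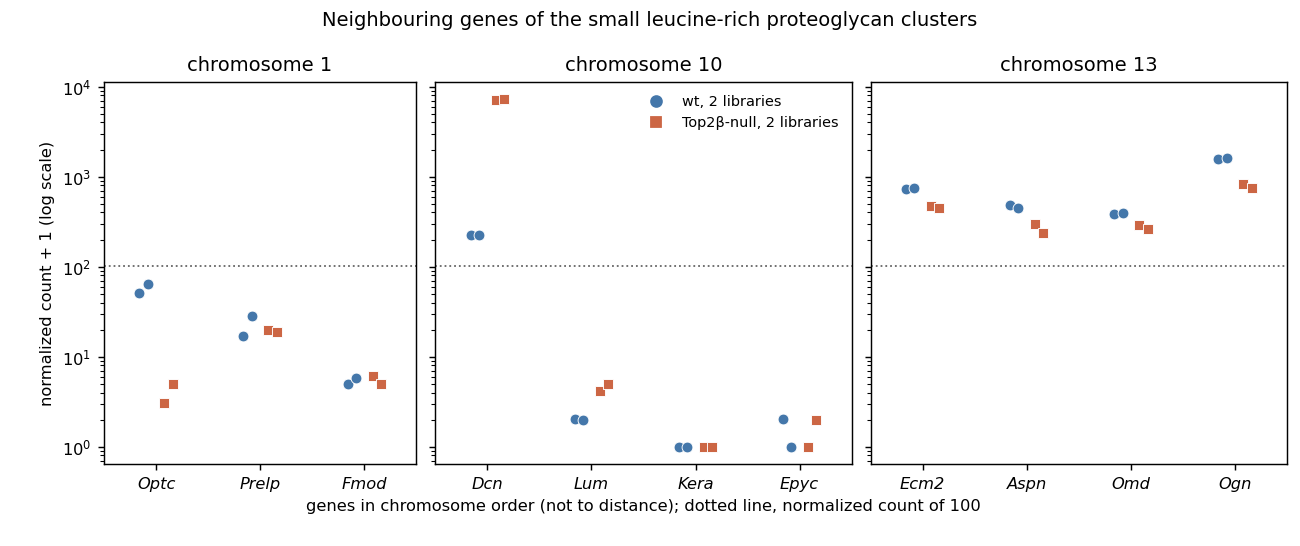
Normalized count plus 1 (log axis) of the small leucine-rich proteoglycan genes of the 3 clusters, in chromosome order and not to distance, in the 2 wt (blue circles) and 2 Top2β-null (orange squares) libraries; the dotted line marks a normalized count of 100. Dcn is the only gene of its cluster above that line, and the 4 genes on chromosome 13 each have both Top2β-null libraries below both wt libraries.

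Versican and aggrecan are large proteoglycans that bind hyaluronan. Vcan (ENSMUSG00000021614.16, chr13:89655312-89742509, - strand), typical of loose and embryonic tissue, was read at 8117 and 8559 normalized counts in wt and 67000 and 66815 in Top2β-null cells, 8.02-fold higher (log2 fold change 3.0 ± 0.031). Acan, the main proteoglycan of cartilage, was read at 98.9 and 100.5 in wt and 5.18 and 3.96 in Top2β-null cells. The wt libraries were the higher ones for Acan, but its mean was under the cut-off, it reached 10 counts only in wt and it was not called. So 1 of these 2 members was called (50%, against 10.8% of all genes tested). Of the 4 cartilage markers tested, Matn3 had its higher values in wt (36.3 and 35.7, against 4.14 and 0.99 in Top2β-null) and reached 10 counts only there. Col2a1, Col11a2 and Sox9 had their higher values in Top2β-null MEF cells.

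Genes that work with the members were read from 3 further lists. The enzymes that make glycosaminoglycan chains and hyaluronan were 28, all tested, of which 3 were called higher and 3 lower (21.4%, against 10.8% of all genes tested). Of the 27 over the mean cut-off 22.2% were called, against 16.2% of all genes over it. Has2, the hyaluronan synthase whose product versican binds, was read at 980.0 and 984 normalized counts in wt and 8117 and 8429 in Top2β-null cells (log2 fold change 3.07 ± 0.037). The heparan sulfate polymerase gene Ext1 (log2 fold change 1.23 ± 0.025) and the chondroitin sulfotransferase gene Chst11 (1.12 ± 0.04) were also called higher. Csgalnact1, which starts chondroitin chains, was called lower (1189 and 1201 in wt, 203 and 201 in Top2β-null, log2 fold change -2.56 ± 0.072), as were Extl3 (-1.21 ± 0.029) and Chst3 (-1.02 ± 0.13).

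A list of 74 related matrix genes had 54 tested members, of which 10 were called higher and 5 lower (27.8%, against 10.8% of all genes tested, and 45.5% of the 33 over the mean cut-off, against 16.2% of all genes over it). Smoc1, a calcium-binding relative of Sparc, had the largest difference of this list, with 15.1 and 18.4 normalized counts in wt and 10113 and 10229 in Top2β-null cells (log2 fold change 9.23 ± 0.067). Emilin2 (4.07 ± 0.053) and Npnt, the gene of the integrin ligand nephronectin (4.06 ± 0.098), followed it on the log2 scale. In the other direction Pcolce2, an enhancer of procollagen cleavage, was read at 3805 and 3987 in wt and 217 and 187 in Top2β-null cells (log2 fold change -4.27 ± 0.066). The laminin chain gene Lamb3 (-2.46 ± 0.13) and the leucine-rich Podnl1 (-2.35 ± 0.047) were called lower too. Among 18 non-integrin receptors for matrix, 16 were tested, with 2 called higher (the guidance receptor gene Robo1, 5.28 ± 0.089, and the syndecan Sdc3, 1.26 ± 0.032) and 2 lower (the glypican Gpc1, -1.13 ± 0.025, and Sdc2, -1.03 ± 0.025). These 4 are 25% of the receptors tested, all of which were over the mean cut-off, where 16.2% of all genes were called.

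Gene length and the letters before the start were also read. The members' median gene length was 55.5 kb for those called higher, 49.3 kb for those called lower and 24.5 kb for those not called. The ranges overlapped, at 5.93 to 639.7 kb, 3.24 to 129.6 kb and 3.01 to 207.4 kb. The median was 9.31 kb for all genes tested, which include noncoding genes. Whether length has a part in the calls was not tested. The 250 bases before the transcription start were available from RefSeq (build GRCm38.p6) for 32 of the 50 members, taking for each the RefSeq start nearest to the annotated beginning of the gene. In 7 of the 32 that start lay more than 100 bases from the annotated one, 12 windows held annotated exon bases, and 18 had neither. In these windows the letters TATAAA, the core of a TATA box, were searched on both strands and were present in 8 of 32, against 12.4% of 32851 promoters of the same length, and all 8 are among the 18. The 8 are Spp1, Tnc and Thbs2, which were called higher, Postn, which was called lower, and Ecm1, Cyr61, Ogn and Aspn, which were not called. The stretches around the match are shown for the member with the largest change in each direction among them (Spp1 and Postn) and for the matches at the distance from the start where a TATA box usually lies, with the match in capitals.

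Spp1: ctaaatgcagtcTATAAAtgaaaagggtag
Postn: agcccagagctaTATAAActcagctctcca
Cyr61: ctaggcaggcatTATAAAgggcgggctccc
Ecm1: cgggagatagcaTATAAAgagagacagaca

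The stretches lie at chr5:104434888-104434917, + strand (Spp1), chr3:54361069-54361098, + strand (Postn), chr3:145649993-145650022, - strand (Cyr61) and chr3:95739579-95739608, - strand (Ecm1). The first letter of the match stands 26 bases before the start in Postn, 25 in Cyr61 and 27 in Ecm1, but 211 bases before it in Spp1. In the genes not shown, the match nearest to the start stands 126 bases before it in Tnc and Thbs2, 178 in Aspn and 227 in Ogn. In Thbs2 and Aspn it is the reverse complement. The letters GGAATG, known as the TEAD motif through which YAP and TAZ act, were found in 5 of 32 member windows against 12.6% of all promoters. The 5 are Cyr61, Mfap2, Nid1, Ogn and Acan, none of which was called, and Ctgf had no window among the 32. The AP-1 motif TGANTCA was found in 3 of 32 against 6.75%, and CCAAT in 11 of 32 against 33.9%, both searched on both strands.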

How the data were processed

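Libraries were made with a stranded, ribosomal RNA depleting kit. The authors trimmed the reads, aligned them with STAR to the mouse genome (GRCm38, mm10) and obtained counts per Gencode gene and per repeat family with TEtranscripts. The deposited counts are whole numbers and were not normalized. The strand setting of the counting and its treatment of reads with several alignments are not given in the sources used here, so reads may be shared with overlapping genes, and overlapping genes with many counts relative to a member are named beside it.

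Libraries were assigned from the labels. Counts were tested in R 4.3.3 with edgeR 4.0.16: a feature needed 10 or more counts in 2 or more libraries, TMM factors came from genes and repeats jointly, and genotype was the only term of the quasi-likelihood fit. P-values of every feature tested entered 1 Benjamini-Hochberg adjustment. The standard error was obtained from the log2 fold change and the root of its F statistic. For normalized counts, each library was brought to the geometric mean of the effective sizes, and levels per kilobase use exon lengths of GENCODE M21. The functions were tested on simulated data. With 2 libraries a group, 0.33 is the smallest p of an exact permutation test. Replicates were more variable than counting alone allows (3.65 for wt and 5.07 for Top2β-null as chi-square over its degrees of freedom). The floor of a group is 3 counts or fewer in each library.

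The members and the gene and marker lists were chosen with earlier results of these data known, so no list was given a test of its own. Library values are given for called members, members at the floor, the 2 members of highest mean in each role and those that go against their role. From each further list the text names at most 3 called genes with the largest change in each direction, and all genes of the proteoglycan clusters. As exceptions to this, Loxl3, Loxl4, Matn3, Des and the other markers named were picked after their values were seen. The alternatives were DESeq2 1.42.0, other scalings, filters and cut-offs, the replicate number as a block, and leaving out each library.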

Additional observations from a re-analysis of the deposited data

How the results depend on the processing

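The counts of 14 members called higher and 7 lower were the same, and so were the 21 genes, with DESeq2, with genes-only TMM factors, without a filter on low counts and with the replicate block (14 and 7). The replicate numbers were not taken to pair the libraries, since deviations of same-numbered libraries correlated at 0.020. Scaling to the total count gave 15 and 7, and a filter at 100 counts in every library 10 and 5, because it removed 6 called members. The cut-off on the adjusted p alone (0.05) gave 26 and 17, and 66.4% of all genes tested passed it. An absolute log2 fold change above 2 gave 11 and 5, for which the share over all genes was not computed. Leaving out 1 library gave 13 to 15 higher and 7 to 9 lower: Fbln5 was lost without wt replicate 1 or Top2β-null replicate 2, Fbn1 was gained without wt replicate 1, Ogn without wt or Top2β-null replicate 1, and Ecm1 without Top2β-null replicate 1. Among the 26 and 17, the adjusted p of Mfap2 passed 0.05 with DESeq2 (0.112) and without wt replicate 2 (0.235) or Top2β-null replicate 1 (0.1), that of Lamb1 without wt replicate 1 (0.226), and that of Hspg2 with genes-only TMM factors (0.0718), the total count (0.767) and without Top2β-null replicate 1 (0.12) or 2 (0.187). The median log2 fold change of the members (0.32) was 0.39 with scaling to the total count, 0.21 with the filter at 100 counts and 0.20 to 0.44 with 1 library left out. The sign changed for 4 members that were not called. Fbln2 (-0.0041) was at 0.0037 with DESeq2, 0.015 with factors from genes only, 0.066 with the total count, 0.013 without a filter, 0.0026 with the filter at 100 counts and -0.033 to 0.038 with 1 library left out. With 1 library left out, Mfap4 ranged from -0.061 to 0.18, Mfap5 from -0.84 to 0.53 and Prelp from -0.58 to 0.16. The causes were not tested. The median of all genes moved by less than 0.1 on the log2 scale under every scaling, at most to 0.064. Levels of a few counts (Eln, Lum, Fmod, Efemp1) are limited by depth.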
